A study of Mus musculus with 1 sample.

Results

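The nuclear-encoded genes of oxidative phosphorylation were followed through the cell groups of a mouse colon carcinoma. They were taken by symbol, as all genes listed for the library whose symbols begin with Ndufa, Ndufb, Ndufc, Ndufs, Ndufv, Uqcr, Sdh, Cox4, Cox5, Cox6, Cox7, Cox8 or Atp5, without pseudogenes, which gave 97 of 32285 genes. Of these, 46 belong by symbol to complex I, 8 to complex II, 8 to complex III, 18 to complex IV and 17 to complex V, and 12 of the genes of complexes I and II code for assembly factors rather than subunits. The 13 protein-coding genes of the mitochondrial genome, written with the prefix mt-, served as the counterpart.

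Oxidative phosphorylation passes electrons from NADH (complex I) and succinate (complex II) through ubiquinone, complex III and cytochrome c to oxygen at complex IV, and complex V, the ATP synthase, uses the resulting proton gradient to make ATP. Complexes I, III, IV and V are built from subunits of both genomes, so that nuclear genes translated in the cytosol and mt- genes translated inside the organelle have to be combined, whereas complex II is wholly nuclear. Several subunits of complex IV exist as alternative isoforms from separate genes, with particular isoforms known from muscle, lung, testis or cells short of oxygen.

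The study examined how the tumor cells' ATP6V0A1, a subunit of the proton pump of acidic organelles, bears on tumor immunity. MC38, a mouse colon carcinoma line, was grown under the skin of female C57BL/6J mice aged 4 to 6 weeks, and the cells of 5 tumors were pooled and sequenced as 1 library. The library carries the genotype label WT and was taken here as the control pool (shNTC, a non-targeting short hairpin RNA) because its label names no hairpin, and the pool of Atp6v0a1 knockdown tumors was not analysed here. The deposited values were UMI counts, that is, numbers of distinct captured transcript molecules per gene and cell, from a protocol that reads the 3' end of each transcript.

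The library held 106631000 UMIs in 5307 called cells, with a median of 9248 and a range of 511 to 231902 per cell. Leaving out 667 cells with over 20% mt- UMIs and 172 likely doublets kept 4468 cells. They were clustered without the nuclear genes of the set, the mt- genes or the other mitochondrial and glycolysis genes read from lists below, and named from marker lists. Other genes named below were not withheld from the clustering. The largest class was 1865 Shisal2b-high cells, taken as the tumor cells, with high Shisal2b and Rhox5 and nearly no Xist, a transcript that female host cells carry (3.60 CPM, that is, UMIs per 1000000 UMIs of a group, against 788 in myeloid-like cells). The label calls the line's cells epithelial, but the epithelial genes Epcam, Cdh1, Krt8, Krt18 and Vil1 had 6, 14, 7, 0 and 2 UMIs among the 77141285 of these cells. They fell into a Col3a1-high cluster of 623 cells, a cycling cluster of 408 and a remaining cluster of 834. The 1762 myeloid-like cells comprised 1334 macrophage-like cells in 6 clusters, 280 monocyte-like cells and 148 shallow cells without a name. There were 113 T and NK-like, 47 DC-like (dendritic), 33 CAF-like (cancer-associated fibroblast) and 27 endothelial-like cells, and 4 clusters with 473, 74, 48 and 26 cells stayed unnamed. All names ending in "-like" rest on marker genes alone.

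Levels are given as CPM, the UMIs of a gene or gene set pooled over the cells of a group and scaled by the total UMIs of that group. Because each molecule is counted once at its 3' end, levels were not divided by transcript length, although genes may still differ in how well they are captured. All cells came from 1 library without a tag for the tumor of origin, so there were no replicates, no test between groups was possible, and all intervals (95%, exact) cover counting error only. Ratios of levels were read for genes with at least 50 UMIs in the 2 groups together, and a ratio of at least 1.5 in either direction was counted as a difference.

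The nuclear genes were highest in Shisal2b-high cells, in which they made up 30679 CPM (30640 to 30718). The remaining, Col3a1-high and cycling clusters held 31839, 30095 and 29167 CPM. T and NK-like cells followed with 25439 (25076 to 25807), DC-like cells with 24698 (24237 to 25166), monocyte-like cells with 23755 (23521 to 23991) and CAF-like cells with 23400 (22979 to 23828), and the intervals overlapped between the first 2 and between the last 2 of these groups. Macrophage-like cells ranged by cluster from 18804 to 23921, and the 27 endothelial-like cells, which had a median of only 1146 UMIs, were lowest with 17907. Over cells of all depths, every tumor cluster thus stood above every named host group. Among cells under 5000 UMIs, however, the Col3a1-high cluster held 17557 CPM and myeloid-like cells held 19532.

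Among the macrophage-like clusters, proliferating cells were highest (23921), followed by a cluster led by Clec9a and Cxcr3 (22813), Cxcl9 cells (21136), a cluster led by Fosb and Klf2 (19948), Arg1-Spp1-Mmp12 cells (19752) and a small cluster of 22 cells led by Retnla and Lyve1 (18804). The intervals of the Fosb and Klf2 cluster and the Arg1-Spp1-Mmp12 cells overlapped. The cluster led by Clec9a is named by the macrophage markers, of which all 7 were raised and which together stood at 50951 CPM, against 811 in DC-like cells. Its leading genes include Clec9a, a dendritic marker, and no macrophage marker of the list. Clec9a had 25 UMIs (8.18 CPM, against 45.3 in DC-like cells), and the 10 dendritic markers stood at 63.8 in the cluster and 1071 in DC-like cells. The cells named for Cxcl9 were led by interferon-response genes such as Ifit3 and Rsad2, and their level of Cxcl9 itself (1429) was close to that of the 2 clusters led by Clec9a (1502) and Fosb (1346).

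**Figure D1:**
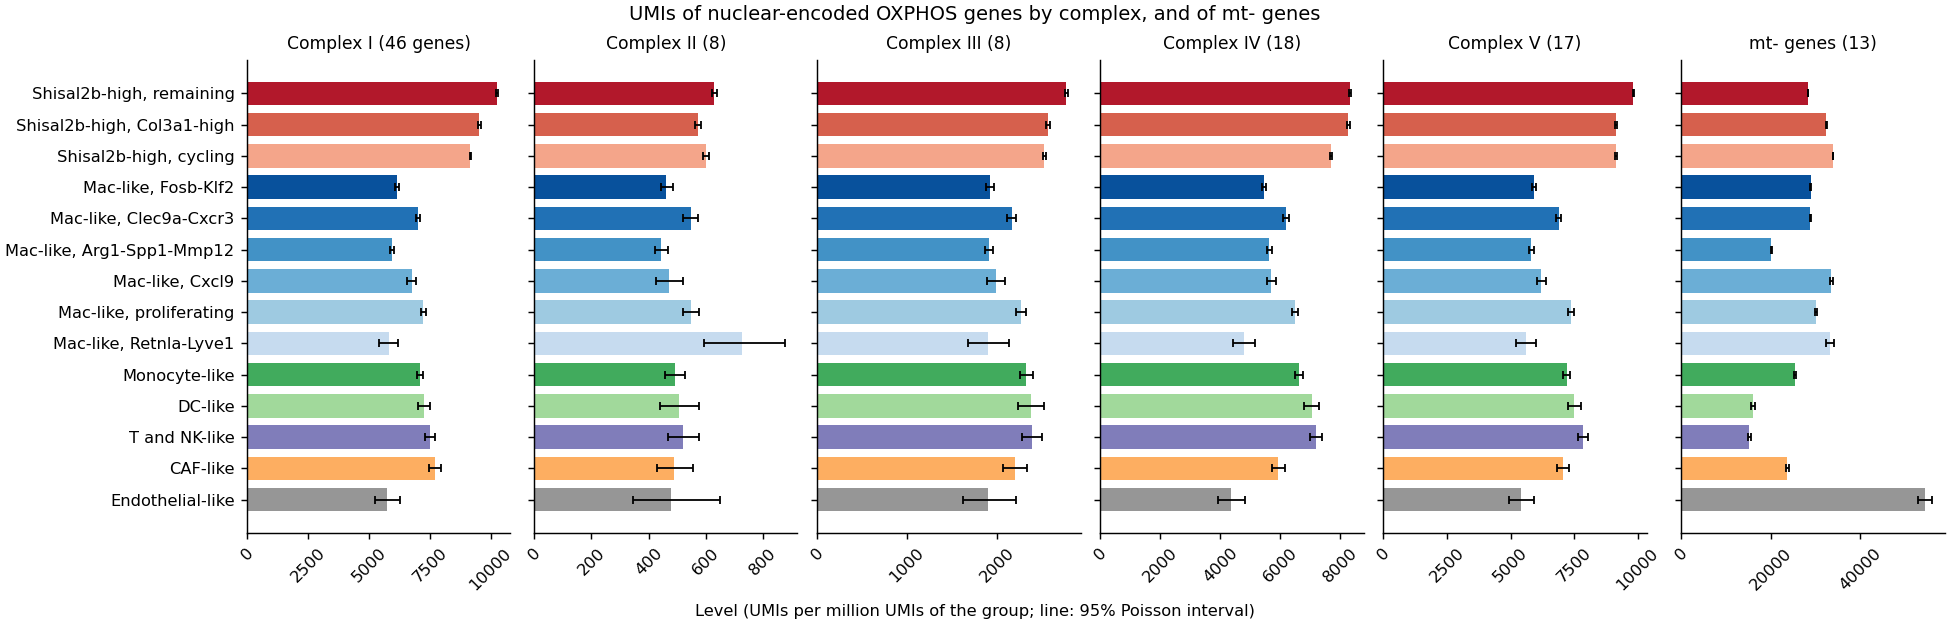
Levels of the nuclear genes of complexes I to V and of the 13 mt- genes in 14 cell groups, in CPM, with 95% Poisson intervals as lines. Over cells of all depths the 3 Shisal2b-high clusters lead in complexes I, III, IV and V. The mt- genes are lowest in T and NK-like cells (15204) and highest in endothelial-like cells (54485).

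The mt- genes did not follow the same order. They made up 30868.5 CPM in Shisal2b-high cells, 28197 in myeloid-like cells, 25359 in monocyte-like cells and 23725 in CAF-like cells, but only 15990.5 in DC-like and 15204 in T and NK-like cells. Per nuclear UMI of the set, there were 1.01 mt- UMIs in Shisal2b-high cells, 1.31 in myeloid-like, 1.01 in CAF-like, 0.647 in DC-like and 0.598 in T and NK-like cells. T and NK-like and DC-like cells, which ranked next to the tumor cells for the nuclear genes, were thus lowest of the named groups for the mt- genes. Within the macrophage-like cells the ratio ran from 1.02 in Arg1-Spp1-Mmp12 cells to 1.59 in Cxcl9 and 1.77 in Retnla and Lyve1 cells. Endothelial-like cells had 3.04, at low depth. Shallow cells held more mt- UMIs, with 57052 CPM in myeloid-like cells under 5000 UMIs and 22047 in those over 20000. In cells of 5000 to 20000 UMIs alone the mt- genes stood at 57566 in Shisal2b-high, 25706 in myeloid-like and 13414 in T and NK-like cells. The nuclear genes stood there at 29999 in Shisal2b-high and 21368 in myeloid-like cells. In that window the tumor cells thus held more mt- UMIs per nuclear UMI than the myeloid-like cells, the reverse of the order over all depths.

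Shisal2b-high cells were compared with myeloid-like cells to ask how the tumor cells differ from the largest host population. Summed over the set, the nuclear genes were 1.42-fold higher in the tumor cells (1.419 to 1.430), and the mt- genes 1.09-fold (1.091 to 1.098). By complex, with Ndufa4 counted in complex I by its symbol, the ratio was 1.49 for I, 1.23 for II, 1.29 for III, 1.37 for IV and 1.47 for V. The ratio of complex II was the lowest of the 5, and in cells of 5000 to 20000 UMIs alone it was 1.01 (0.958 to 1.06). Of the 94 members with enough UMIs, 37 were at least 1.5-fold higher and 5 at least 1.5-fold lower. Over all 12594 genes compared, 39.3 percent were called higher and 27.3 percent lower, so the share of members called higher lay at the background and is not a result about the members. Counts within single complexes are small and are read against the same background. The median ratio was 1.37 over the members and 1.19 over all genes.

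The median of all genes was thus itself shifted by 0.25 on the log2 scale. Relative to it, 24 members were higher and 7 lower by the same fold. Counting per total UMIs without mt- and ribosomal protein genes raised the shift to 0.48 and the count of members called higher to 59, with 4 lower, and the counts relative to all genes stayed at 24 and 7. Ribosomal protein UMIs were 1.64-fold higher in Shisal2b-high cells. Depth moved with the groups as well, with medians of 37962 UMIs per Shisal2b-high and 8127 per myeloid-like cell. In cells of 5000 to 20000 UMIs alone, the ratio of the nuclear set was 1.40, close to that of all cells, but that of the mt- genes was 2.24. Under 5000 UMIs the nuclear genes stood at 22755 CPM in Shisal2b-high and 19532 in myeloid-like cells, and over 20000 UMIs at 30775 and 23957. The groups thus lay closer together in both outer bins than in the window or over all cells.

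UMIs of the tumor markers were found in all host groups. Shisal2b and Rhox5 together stood in myeloid-like cells at 6.83% of their level in Shisal2b-high cells, in T and NK-like cells at 7.79% and in CAF-like cells at 17.1%. With this share of the tumor profile subtracted, the ratio of the nuclear set over myeloid-like cells was 1.47, against 1.42 before. Whether these UMIs are free RNA or unrecognised doublets was not tested.

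Complex I, which oxidises NADH, has 7 core subunits among the nuclear genes, and 4 of them were at least 1.5-fold higher in Shisal2b-high cells. Of all genes 39.3 percent were called higher. Ndufv1, which binds the flavin that accepts electrons from NADH, had 108 CPM in Shisal2b-high and 54.1 in myeloid-like cells, with an interval of 1.87 to 2.15 for their ratio. Ndufs1, the largest iron-sulfur subunit, had the lowest level of the widely expressed subunits of the complex in tumor cells (33.6). Core subunits of the same complex thus spanned 33.6 to 233 CPM.

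The 30 genes counted by symbol as accessory subunits of complex I had a median ratio of 1.37, with 10 higher and 2 lower. This share called higher was not above the 39.3 percent of all genes. Ndufb9 was the most abundant member of the complex in Shisal2b-high cells, with 727 CPM against 238 in myeloid-like cells, a ratio of 3.05 (2.95 to 3.16). Ndufa12 stood at 454 against 186. Running the other way, Ndufa1, an X-linked subunit needed for assembly, had 78.6 in Shisal2b-high and 140 in myeloid-like cells, a ratio of 0.56 (0.533 to 0.588). Ndufv3 was also lower (0.661), and Ndufa3 stood at 0.703. Genes counted here thus differed by ratios from 0.56 to 4.26 between the same 2 groups. The 4.26 is that of Ndufa4, counted here by symbol, whose protein is now known as a subunit of complex IV. The next highest was Ndufb9.

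**Figure D2:**
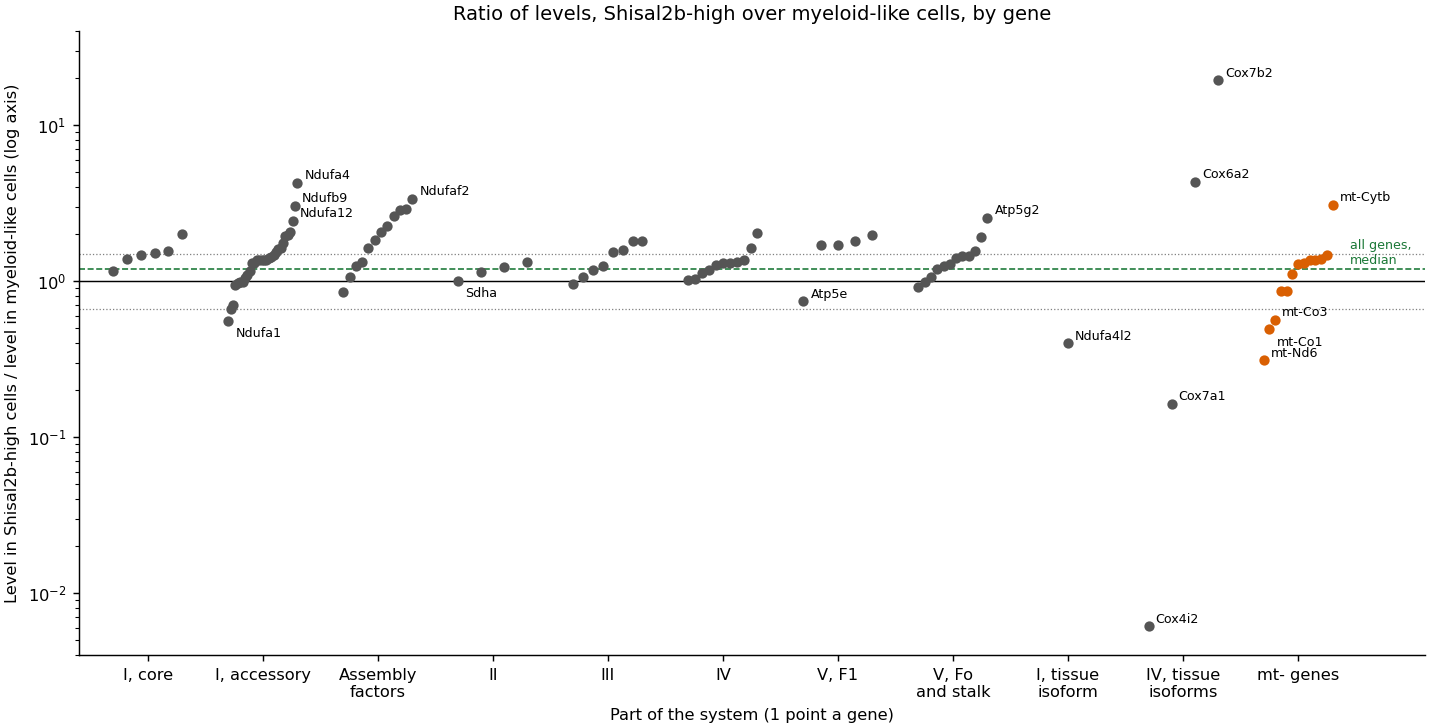
Ratio of the level in Shisal2b-high cells to that in myeloid-like cells, on a log axis, for reported genes with at least 50 UMIs (1 point a gene, sorted within each part of the system). Dotted lines mark 1.5-fold in either direction and the dashed line the median of all genes (1.19), and the tissue isoforms of complex IV spread from 0.00614 (Cox4i2) to 19.4 (Cox7b2) while the widely expressed subunits lie between 0.56 and 4.26.

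Assembly factors, which help build complexes I and II but do not remain in them, had a median ratio of 1.96. Of the 12, 8 were at least 1.5-fold higher and none lower, where 39.3 percent of all genes were called higher and 27.3 percent lower. Ndufaf2 had 95.2 CPM in Shisal2b-high and 28.2 in myeloid-like cells, a ratio of 3.37 (3.06 to 3.72). Ndufaf4 (2.92), Ndufaf6 (2.87), Ndufaf7 (2.26), Ndufaf5 (2.07) and Ndufaf1 (1.64) were higher as well, whereas Ndufaf8 stood at 1.25 and Ndufaf3 at 0.857. For complex II, Sdhaf3 (2.61) and Sdhaf1 (1.84), which serve the iron-sulfur subunit, were higher, and Sdhaf4 (1.32) and Sdhaf2 (1.06), which serve the flavoprotein, were not past 1.5-fold. All 12 stood at or under 95.2 CPM in the tumor cells, and Ndufaf5, at 11.9, was lowest among the members of complex I with at least 50 UMIs.

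Complex II is the succinate dehydrogenase shared with the tricarboxylic acid cycle. Its flavoprotein Sdha had 65.8 CPM in Shisal2b-high and 65.7 in myeloid-like cells, a ratio of 1.001 (0.936 to 1.07). Sdhb, its iron-sulfur subunit, stood at 177 against 154, and the membrane anchors Sdhc and Sdhd at 99.7 against 81.3 and 112 against 83.6. Of these 4 subunits 0 passed 1.5-fold. In the small Retnla and Lyve1 cluster Sdha stood at 156 from 23 UMIs and Sdhc at 210 from 31, the highest values among the named groups.

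Complex III, which passes electrons to cytochrome c, had 4 of 8 genes called higher, against 39.3 percent of all genes. The 4 were its core proteins Uqcrc2 (151 against 83.2, ratio 1.82) and Uqcrc1 (1.80), the iron-sulfur protein Uqcrfs1 (1.53) and the small subunit Uqcrq. At 636 CPM Uqcrq was the most abundant of the complex. Uqcrh, the hinge protein, stood at 512 in Shisal2b-high and 484 in myeloid-like cells. In T and NK-like cells Uqcrh reached 907, the highest level of that gene among the groups, against 593 in monocyte-like and 390 in Cxcl9 macrophage-like cells.

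Among the 11 widely expressed subunits of complex IV the median ratio was 1.31 and only Cox6c (2.04) and Cox8a (1.63) passed 1.5-fold. Cox8a was the most abundant of all members in Shisal2b-high cells with 1550 CPM, against 950 in myeloid-like cells. Cox4i1, the ubiquitous form of the largest nuclear subunit, stood at 1246 and 951. Cox7a2l stood close to equal (291 and 288, ratio 1.01, interval 0.979 to 1.044).

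Complex V had 7 of 17 members called higher, a share near the 39.3 percent of all genes, and 0 called lower. In its catalytic F1 part, 4 of 5 subunits were higher, with Atp5b, the subunit that carries the active sites, at 807.2 against 407 (ratio 1.98) and Atp5a1 at 440 against 257 (1.71), while Atp5e stood at 555 against 746 (0.744). The membrane part Fo turns on a ring of identical c subunits, which 3 genes encode with the same mature protein. Atp5g2 had 1356 CPM in Shisal2b-high and 530 in myeloid-like cells, a ratio of 2.56 (2.50 to 2.61), Atp5g1 had 897 and 466, and Atp5g3 had 320 and 221. Atp5g3, at a ratio of 1.45, did not pass 1.5-fold, and Atp5g2 was the most abundant of the 3 in both groups. In Arg1-Spp1-Mmp12 cells Atp5g2 (557) stood above Atp5g1 (377), while in Cxcl9 cells they had 421 and 482, with overlapping intervals. Atpif1, which codes for the inhibitor of the synthase and does not match the rule on symbols, was at 405 and 379.

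The promoters of the 3 ring genes are shown because these genes code for the same protein at different levels, together with that of Ndufa4, described next. The stretches come from RefSeq (build GRCm38.p6) and are written 5' to 3' on the strand of the gene. They lie within the 250 bases before the RefSeq start, leave out bases that the GENCODE M21 annotation places in an exon, and show at most 200 bases. For Atp5g2 the RefSeq start lies inside the gene as GENCODE draws it (chr15:102662864-102672352), so that its stretch lies within the annotated gene. Capitals mark the letters of 1 of 4 motifs, CGCATGCG (the core bound by NRF1), CCGGAAG (bound by ETS factors), AAGATGGC (bound by YY1) and ACGTG (the core of hypoxia response elements), on either strand, and CACGTG holds the last of them on both.
Atp5g1, chr11:96075671-96075870, minus strand: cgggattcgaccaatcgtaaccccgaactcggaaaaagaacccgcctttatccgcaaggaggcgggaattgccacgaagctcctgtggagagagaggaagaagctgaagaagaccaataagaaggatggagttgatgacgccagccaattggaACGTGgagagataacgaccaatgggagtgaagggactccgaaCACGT
Atp5g2, chr15:102671128-102671297, minus strand: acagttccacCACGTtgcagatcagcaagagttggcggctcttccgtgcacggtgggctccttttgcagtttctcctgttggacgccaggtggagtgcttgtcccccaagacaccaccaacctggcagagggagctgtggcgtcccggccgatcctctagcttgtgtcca
Atp5g3, chr2:73911327-73911526, minus strand: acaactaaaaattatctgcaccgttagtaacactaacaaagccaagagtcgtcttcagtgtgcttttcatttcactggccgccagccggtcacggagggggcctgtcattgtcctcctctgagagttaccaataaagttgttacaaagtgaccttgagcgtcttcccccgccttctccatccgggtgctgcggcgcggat
Ndufa4, chr6:11907498-11907697, minus strand: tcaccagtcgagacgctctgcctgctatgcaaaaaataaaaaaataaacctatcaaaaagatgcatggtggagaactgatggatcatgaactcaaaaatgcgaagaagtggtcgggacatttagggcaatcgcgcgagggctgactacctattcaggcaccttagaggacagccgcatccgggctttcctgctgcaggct

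Of the 97 members 79 had an entry in the promoter table. The letters CGCATGCG stood within the 250 bases before the start of 8 of them (10.1%), those of Atp5g2, Atp5j, Atp5k, Atp5l, Cox6a1, Ndufa11, Ndufa8 and Ndufaf4, against 1.55% of all 27025 promoters of that length. CCGGAAG stood in 16 (20.3% against 7.14%), AAGATGGC in 1 (1.27% against 1.58%) and ACGTG in 15 (19.0% against 16.4%). In Atp5g2 the 8 letters lay 41 to 34 bases before the start, within an annotated exon and outside the stretch shown, and in the assembly factor Ndufaf4 112 to 105 bases before it, outside exons, as in this piece of its promoter.
Ndufaf4, chr4:24897951-24897998, plus strand: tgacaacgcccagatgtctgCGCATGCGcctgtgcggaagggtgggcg

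The stretches shown do not hold every match within the 250 bases. ACGTG, on either strand, matched at 3 places before Atp5g1, not all of them in its stretch. It matched at 2 places before Atp5g3, none of them in its stretch. A match of letters describes the sequence only, and binding was not measured.

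Ndufa4 had the largest ratio of any abundant member. Its protein was first assigned to complex I and is now known as a subunit of complex IV. It stood at 487 CPM in Shisal2b-high cells (37564 UMIs) and at 114 in myeloid-like cells (1805 UMIs), a ratio of 4.26 (4.06 to 4.47). By cluster it ranged from 391 to 517 in the tumor cells and stood at 361 in T and NK-like, 331 in endothelial-like, 303 in CAF-like, 272 in DC-like and 206 in monocyte-like cells. Macrophage-like cells were lowest, with 121, 119, 113, 89.8 and 75.5 in the Clec9a and Cxcr3, Cxcl9, proliferating, Fosb and Klf2 and Arg1-Spp1-Mmp12 clusters. The exception was the Retnla and Lyve1 cluster, with 380 (287 to 493).

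AA467197, which does not match the rule on symbols and was added after its values had been seen, codes for a protein related to Ndufa4 (also called Nmes1) that is known to take its place in complex IV. The gene lies at chr2:122636986-122641191. Unlike the members, it was not withheld from the clustering and could have shaped the groups compared here. It ran opposite to Ndufa4, with 159 CPM in Shisal2b-high and 853 in myeloid-like cells. Among macrophage-like cells it was highest in Arg1-Spp1-Mmp12 cells (1358) and lowest in the Retnla and Lyve1 cluster (27.1, from 4 UMIs). Monocyte-like cells stood at 919, DC-like cells at 376, T and NK-like cells at 309 and CAF-like cells at 35.9.

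Per UMI of Ndufa4 there were 17.99 UMIs of AA467197 in Arg1-Spp1-Mmp12 cells (15.8 to 20.6), 7.46 in myeloid-like cells as a whole, 4.45 in monocyte-like cells, 1.38 in DC-like, 0.857 in T and NK-like, 0.327 in Shisal2b-high, 0.118 in CAF-like and 0.0714 in Retnla and Lyve1 cells (0.0188 to 0.193). Within the macrophage-like cells alone the balance of the 2 paralogs thus ran from 0.0714 to 17.99. With the tumor share of RNA subtracted, the ratio of Ndufa4 between Shisal2b-high and myeloid-like cells was 5.597 in place of 4.26.

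**Figure D3:**
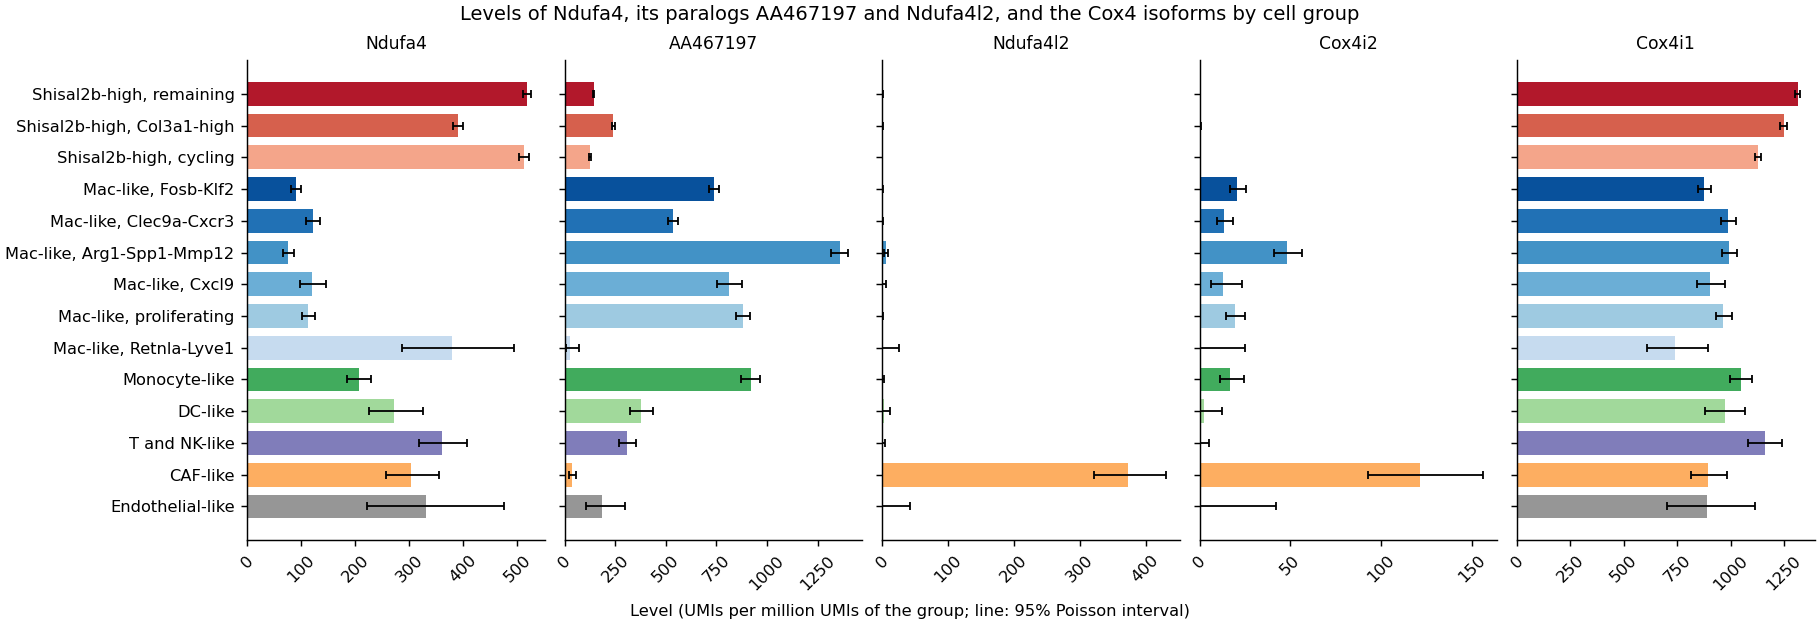
Levels of Ndufa4, its paralogs AA467197 and Ndufa4l2, and the Cox4i2 and Cox4i1 forms of the same complex IV subunit in 14 cell groups, in CPM with 95% Poisson intervals as lines. Ndufa4 and AA467197 run in opposite directions between the tumor and most macrophage-like clusters, and Ndufa4l2 (373) and Cox4i2 (122) are highest in CAF-like cells.

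The third paralog, Ndufa4l2, known to be induced at low oxygen and expressed in pericytes, was found mostly in CAF-like cells, with 187 of the 262 UMIs of the 4468 kept cells (373 CPM). Arg1-Spp1-Mmp12 cells had 18 UMIs, all in 4 cells, and Shisal2b-high cells 41. Cox4i2, the form of Cox4 known from lung and from low oxygen, had its highest level there too, with 122 CPM from 61 UMIs, followed by Arg1-Spp1-Mmp12 cells (48.3 from 149 UMIs in 76 of 253 cells). In the other macrophage-like clusters with UMIs of Cox4i2 it stood at 13.1 to 20.9, and in the 1865 Shisal2b-high cells at 0.143, from 11 UMIs in 11 cells, so the ratio of these to myeloid-like cells was 0.00614 (0.00304 to 0.0111). Per Cox4i1 UMI, Cox4i2 amounted to 13.6% in CAF-like, 4.86% in Arg1-Spp1-Mmp12 and 1.45% in Cxcl9 cells.

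The CAF-like cells were split by Rgs5, a pericyte marker, after their values had been seen, so the split is a description. The 6 cells with at least 10 UMIs of Rgs5 held 159 of the UMIs of Ndufa4l2 (1247 CPM) and all 61 of Cox4i2 (478 CPM), with Ndufa4 at 54.9. In the other 27 cells Ndufa4l2 stood at 74.9, Cox4i2 had 0 UMIs, which allows up to 8.02 CPM, and Ndufa4 stood at 388. Cox4i1, the ubiquitous form, stood at 1067 (895 to 1262) in the 6 and 834 (744 to 932) in the 27. Pdgfra, a fibroblast marker, had 0 UMIs in the 6 cells and 118 CPM in the 27. The 6 cells thus held more Ndufa4l2 and Cox4i2 and less Ndufa4, without less Cox4i1. All nuclear members together stood at 29135 CPM (28205 to 30087) in the 6 cells, level with the cycling tumor cluster, and at 21445 (20978 to 21919) in the 27.

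The other isoforms of complex IV were scarce. Cox6a2, the heart and muscle form of Cox6a, stood at 40.8 CPM in Shisal2b-high cells, in 621 of 1865 cells (33.3%), against 276 for the widespread Cox6a1, and at 9.37 in myeloid-like cells, a ratio of 4.35 (3.69 to 5.17). It had 1 UMI in T and NK-like and 0 in CAF-like cells. The muscle genes Acta1 and Ckm stood at 0.376 and 0.104 in Shisal2b-high cells, and the cardiac troponin Tnnt2 at 66.3 against 4.56 in myeloid-like cells. The muscle myosin gene Myh1 was among the genes that led the remaining cluster, which held 1797 of the 3148 UMIs of Cox6a2 in Shisal2b-high cells. Cox7a1, the muscle form of Cox7a, had 99 UMIs in Shisal2b-high and 124 in myeloid-like cells (1.28 and 7.85 CPM), far below Cox7a2 (567 and 427.5).

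Cox7b2, a form known from testis, had 95 UMIs in 39 Shisal2b-high cells and 1 in myeloid-like cells, a ratio of 19.4 with an interval from 3.41 to 776. Of these 95 UMIs 50 came from 10 cells. Cox7b, the widespread form, had 452 CPM in the tumor cells against 1.23 for Cox7b2. The testis form Cox6b2 had 57 UMIs in all kept cells, of which 3 were in Shisal2b-high and 41 in myeloid-like cells, against a level of 539 CPM for Cox6b1 in the tumor cells. The muscle form Cox8b had 1 UMI and the testis form Cox8c 0 in the whole library of kept cells.

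The mt- genes did not move together. The strand that carries most of them is transcribed as a long precursor that is cut into mRNAs. In the annotation mt-Atp8 overlaps mt-Atp6, and mt-Nd4l overlaps mt-Nd4, on the same strand, so their UMIs may not come from separate transcripts. Cytochrome b, mt-Cytb, had 9021 CPM in Shisal2b-high and 2923 in myeloid-like cells, a ratio of 3.09 (3.06 to 3.12). Over all cells the subunits of complex IV ran the other way, with mt-Co1 at 3183 against 6477 (0.491) and mt-Co3 at 3208 against 5695 (0.563), and mt-Co2 at 3964 against 4582 (0.865). For complex V, mt-Atp6 stood at 6248 against 4587 (1.36). The direction of complex IV turned in a window of depth. In cells of 5000 to 20000 UMIs alone mt-Co1 stood at 7397 in Shisal2b-high and 5925 in myeloid-like cells (1.25). There mt-Co3 stood at 1.43 and mt-Co2 at 1.81, with mt-Cytb at 5.62. The window also changed the mix of tumor clusters, with 191 of its 383 Shisal2b-high cells in the Col3a1-high cluster, against 623 of 1865 over all depths.

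The mt- genes of complex I summed to a ratio of 1.33, with mt-Nd1 at 1.29, mt-Nd2 at 1.47, mt-Nd3 at 1.37, mt-Nd4 at 1.38, mt-Nd4l at 1.31 and mt-Nd5 at 0.861. The only protein-coding gene of the other strand, mt-Nd6, had 172 and 113 UMIs (0.312), and mt-Atp8 stood at 1.11. By complex, the ratios of nuclear and mt- genes over all cells were 1.49 and 1.33 in complex I, 1.29 and 3.09 in complex III, 1.37 and 0.618 in complex IV and 1.47 and 1.36 in complex V. In cells of 5000 to 20000 UMIs alone they were 1.48 and 2.43 in complex I, 1.26 and 5.62 in complex III, 1.44 and 1.46 in complex IV and 1.37 and 2.77 in complex V. The nuclear ratios of these 4 complexes thus moved little in this window, whereas each mt- ratio rose by over 1.5 times and that of complex IV changed direction. In the same cells mt-Nd5 stood at 2.11 and mt-Nd6 at 0.433 (0.221 to 0.784).

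mt-Cytb outnumbered mt-Co1 by 2.83 UMIs to 1 in Shisal2b-high cells (2.82 to 2.85), with 3.16, 3.15 and 2.04 in the remaining, cycling and Col3a1-high clusters. The ratio was 1.57 in CAF-like and 1.09 in endothelial-like cells, 0.647 in proliferating macrophage-like, 0.64 in T and NK-like, 0.54 in monocyte-like, 0.48 in Cxcl9 and 0.305 in Arg1-Spp1-Mmp12 cells. Each Shisal2b-high cluster thus held more mt-Cytb than mt-Co1 and each named immune group less. It rose with depth in Shisal2b-high cells, from 1.63 in those under 5000 UMIs to 2.01 between 5000 and 20000 and 2.995 above, and in myeloid-like cells stood at 0.422, 0.446 and 0.547 in the same bins, so that the tumor cells stayed above the myeloid-like cells at each depth. Subtraction of the tumor share brought the ratio of mt-Cytb between the 2 groups from 3.09 to 3.64.

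**Figure D4:**
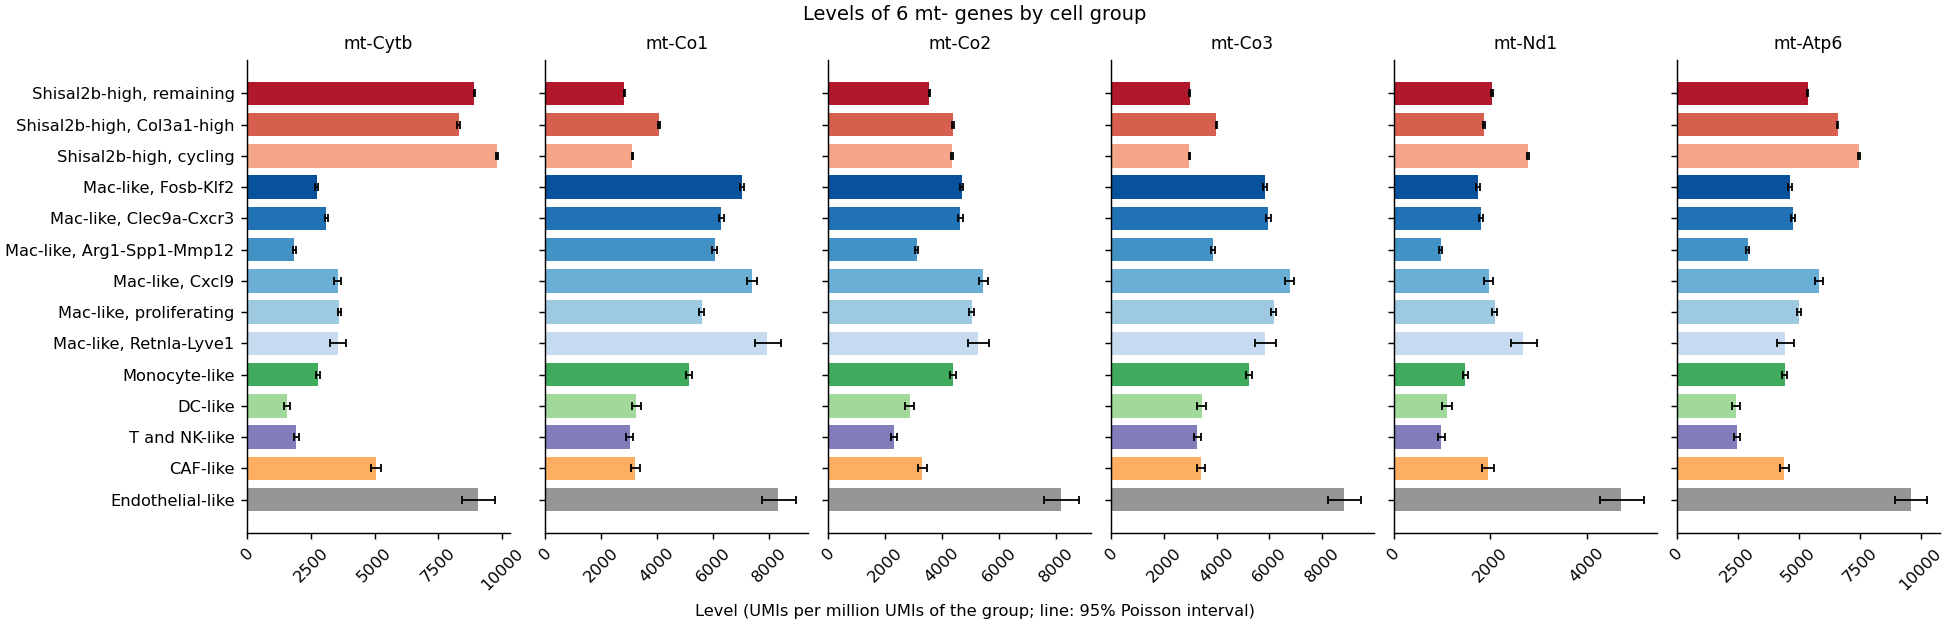
Levels of 6 mt- genes in 14 cell groups, over cells of all depths, in CPM with 95% Poisson intervals as lines. mt-Cytb stands at 8294 to 9787 in the 3 Shisal2b-high clusters and at or under 3620 in all macrophage-like clusters, while mt-Co1 is at least 5593 in the macrophage-like clusters and at most 4061 in the Shisal2b-high clusters, an order of mt-Co1 that turned between tumor and myeloid-like cells of 5000 to 20000 UMIs.

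Cell by cell, the nuclear genes took a median of 3.01% of UMIs in Shisal2b-high cells (quartiles 2.61% and 3.40%), 2.05% in myeloid-like (1.73% and 2.43%) and 2.47% in T and NK-like cells (2.27% and 2.85%). The middle ranges of tumor and myeloid-like cells did not overlap. For the mt- genes the medians were 2.63%, 2.74% and 1.14%, with wide quartiles in tumor cells (0.84% and 5.07%), and 19.0% of Shisal2b-high cells had under 0.5% mt- UMIs. Those cells held 34566 nuclear CPM and the others 29985. Over cells, the share of nuclear genes ran against that of mt- genes, with a Spearman correlation of -0.42 over 1865 Shisal2b-high, -0.26 over 1762 myeloid-like and -0.18 over 113 T and NK-like cells. The cells share a library and differ in depth, and the 2 shares are parts of the same total.

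**Figure D5:**
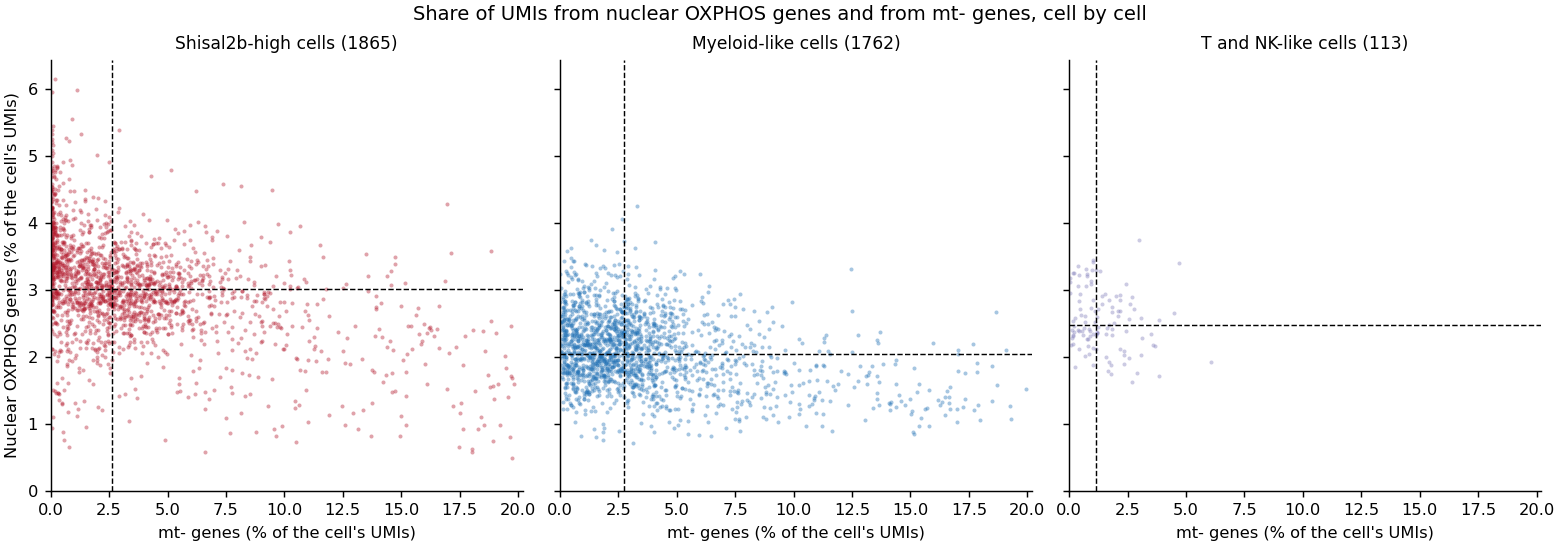
Percent of a cell's UMIs from the nuclear genes (vertical axis) against the percent from the mt- genes (horizontal axis) in Shisal2b-high, myeloid-like and T and NK-like cells, 1 point a cell, with dashed lines at the medians. The nuclear share centres on 3.01%, 2.05% and 2.47%, and in tumor cells a column of points stands close to 0 on the mt- axis.

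The Arg1-Spp1-Mmp12 and Cxcl9 cells were compared as an example of macrophage-like states of 1 tumor library. The contrast was chosen for this description and is not one the labels name. The nuclear genes summed to a ratio of 0.935 (0.919 to 0.9503), with 0.881 for complex I and 0.986 for complex IV. Of 85 members with enough UMIs, 2 were at least 1.5-fold higher in Arg1-Spp1-Mmp12 cells and 3 at least 1.5-fold lower, where 11.2 percent of all genes were called higher and 21.9 percent lower. The medians were 0.933 over the members and 0.911 over all genes. The 2 higher members were Cox4i2 (48.3 against 13.1, ratio 3.68, interval 1.9999 to 7.54) and Cox7a2l (347 against 222, ratio 1.57). The 3 lower members were Ndufs1 (0.568), Ndufa4 (0.633) and the core subunit Ndufs8 (0.639).

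The mt- genes stood apart from the nuclear genes here, with a ratio of 0.600 (0.592 to 0.609). Between these 2 states mt-Cytb had a ratio of 0.521, mt-Nd1 of 0.494, mt-Atp6 of 0.498 and mt-Co2 of 0.571, while mt-Co1 stood at 6057 and 7397 CPM. Glycolysis and lactate export went the other way, with 14 of 16 genes higher, 0 lower and a median ratio of 2.23, led by the glucose transporter Slc2a1 (6.28). Of 13 genes of the tricarboxylic acid cycle 0 were higher and 2 lower (median 0.834), and of 76 mitochondrial ribosomal proteins 0 were higher and 9 lower (median 0.860). Arg1-Spp1-Mmp12 cells were deeper, with a median of 11964 UMIs against 6424.5. In cells of 5000 to 20000 UMIs alone the ratio of the mt- genes was 0.664 (0.652 to 0.675).

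T and NK-like cells were set against myeloid-like cells as the other main immune population. The nuclear genes summed to a ratio of 1.18 (1.16 to 1.20), and the mt- genes to 0.539 (0.529 to 0.549). Of 92 members 11 were higher and 3 lower, where 22.9 percent of all genes were called higher and 29.5 percent lower, with medians of 1.18 over the members and 0.9999 over all genes. Sdhaf1, the assembly factor for the iron-sulfur subunit of complex II, was highest by ratio (61.3 against 16.4, 3.74, interval 2.66 to 5.15), followed by Ndufa4 (3.16), Ndufaf7 (2.29), Ndufaf5 (2.13, from 9 UMIs) and Uqcrh (1.87). The 3 lower members were isoforms of complex IV. Cox7a1 and Cox6a2 had 1 UMI each, with ratios of 0.173 (0.00436 to 0.985) and 0.145 (0.00366 to 0.823), and Cox4i2 had 0 against 367 UMIs, which allows a ratio of up to 0.176.

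Both T and NK-like clusters held the pattern, with 25796 nuclear and 15477 mt- CPM in the cluster led by Nkg7 and Gzma (83 cells) and 23710 and 13880 in that led by Tnfrsf4 and Ifng (30 cells). Ribosomal protein UMIs were 1.67-fold higher in T and NK-like than in myeloid-like cells, and per total UMIs without them and the mt- genes the ratio of the nuclear set was 1.36.

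Monocyte-like cells were compared with macrophage-like cells, to which monocytes can give rise. The nuclear genes stood at a ratio of 1.11 (1.10 to 1.12) and the mt- genes at 0.922. Of 92 members 3 were higher and 1 lower, where 5.69 percent of all genes were called higher and 17.6 percent lower, with medians of 1.08 and 0.948. The higher members were Sdhaf1 (29.6 against 14.8, 2.01), Ndufa4 (206 against 103, 2.005) and Sdhaf3 (1.65, interval 0.980 to 2.65, from 21 UMIs), and the lower was Cox6a2 (6 UMIs, 0.362, interval 0.131 to 0.809). The monocyte-like cells held more tumor RNA by Shisal2b and Rhox5 (9.57% against 6.06%), and after its subtraction Ndufa4 stood at 176 in monocyte-like and 78.1 in macrophage-like cells. Without the cluster led by Clec9a, the ratios were 1.13 for the nuclear genes, 0.935 for the mt- genes and 2.11 for Ndufa4.

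Within the tumor cells the Col3a1-high cluster was set against the cycling and remaining clusters. The nuclear genes were at 0.975 (0.973 to 0.978) and the mt- genes at 1.07. Of 92 members 3 were higher and 0 lower, where 20.3 percent of all genes were called higher and 6.84 percent lower, and the medians were 0.977 over the members and 1.11 over all genes. The 3 were Cox7a1 (60 against 39 UMIs, 5.22, interval 3.43 to 8.03), Cox7b2 (52 against 43, 4.11, interval 2.69 to 6.30) and the complex I subunit Ndufv3 (234 against 146, 1.60). The lowest ratios were those of Ndufaf6 (0.671), Atp5a1 (0.746), Cox5a (0.746) and Ndufaf4 (0.758). In this comparison mt-Co1 stood at 1.39 and mt-Co3 at 1.34, and mt-Cytb at 0.898.

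Levels differed with depth in the Col3a1-high cluster. Its 104 cells under 5000 UMIs held 17557 nuclear and 67343 mt- CPM, against 30544 and 26164 in its 328 cells over 20000. In the cycling and remaining clusters together, the nuclear genes stood at 31298 and 30835 and the mt- genes at 37921 and 29701 in the same bins. The mt- genes were thus higher in the Col3a1-high cluster among shallow cells and lower among cells over 20000 UMIs, so that the ratio of 1.07 did not hold at each depth. The shallow cells with low nuclear levels were in the Col3a1-high cluster.

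Against the 33 CAF-like cells, the nuclear genes of Shisal2b-high cells were at a ratio of 1.31 (1.29 to 1.34) and the mt- genes at 1.30 (1.28 to 1.33). Without the 6 Rgs5 cells the ratio of the nuclear genes was 1.43 (1.40 to 1.46). Of 94 members 23 were higher and 2 lower, where 28.1 percent of all genes were called higher and 31.7 percent lower, with medians of 1.31 over the members and 0.972 over all genes. The share of members called higher was near the background and is not a result about the members. The 23 include 3 with 0 UMIs in CAF-like cells, and for 2 of these, Cox7a1 and Cox7b2, no 1.5-fold difference is shown, which leaves 21. The others were led by Sdhaf2 (2.36, from 9 UMIs in CAF-like cells), Ndufb9 (727 against 321, 2.27), Ndufaf1 (2.20, from 4 UMIs, interval 0.859 to 8.10), Atp5g2 (1356 against 648, 2.09) and Ndufa12 (2.05). Cox6a2 had 3148 UMIs against 0 and was at least 6.82-fold higher by a floor of 3 counts in the CAF-like cells, whereas for Cox7a1 and Cox7b2, with 99 and 95 UMIs against 0, that floor lay above their level in tumor cells and no fold is given. The 2 lower members were Ndufa4l2 (0.00143) and Cox4i2 (0.00117), described above, and the next lowest were Ndufa1 (0.679) and Sdhaf1 (0.688). mt-Cytb stood at 1.79, while mt- genes of complex IV summed to 1.05.

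Other genes of the mitochondrion were read from lists in the same comparison of Shisal2b-high with myeloid-like cells. Of 78 mitochondrial ribosomal proteins, which translate the mt- mRNAs, 53 were at least 1.5-fold higher and 0 lower (median 1.82), led by Mrps6 (11.3). Of 18 assembly factors of complexes III and IV outside the rule, 10 were higher and 0 lower (median 1.74), led by Lyrm7 (3.82). Of 7 carriers, channels and cytochrome c genes 5 were higher and 0 lower (median 2.24), led by the ATP and ADP carrier Slc25a4 (4.76), while its relative Slc25a5 stood at 0.751. Of 13 genes of the tricarboxylic acid cycle 7 were higher and 0 lower (median 1.59), with Suclg2 at 3.89 and Ogdh at 0.822.

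The genes for mitochondrial DNA upkeep and its regulators had 6 of 16 higher and 1 lower (median 1.33), with the single-strand binding protein Ssbp1 at 2.40 and the coactivator Ppargc1b at 0.530. Glycolysis and lactate export had 5 of 18 higher and 4 lower (median 1.05), with Pfkm at 4.47 and Pfkp at 0.272, both forms of phosphofructokinase. Against the background of 39.3 percent called higher, mitochondrial ribosomal proteins had 53 of 78, the carrier list 5 of 7 and glycolysis 5 of 18.

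Members lay on 19 chromosomes. The 4 members on chromosome 15 with enough UMIs for this reading, Atp5g2, Cox6c, Ndufa6 and Ndufb9, had a median ratio of 2.30 between Shisal2b-high and myeloid-like cells. The other 246 genes of chromosome 15 with a mean level of at least 20 CPM had a median of 1.81, the highest of any chromosome, against 1.20 over 5242 genes in all. The copy number of chromosome 15 in the line was not measured here. Its part in the ratios of these 4 members was not tested.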

How the data were processed

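UMI counts per gene and cell were deposited by the authors for 1 library of 5 pooled MC38 tumors (10x Genomics 3' v3.1, GRCm38), not normalized. Cell Ranger 5.0.1 stands in the header and CellRanger V3 in the methods. The members and gene lists were chosen with earlier results of these data known. Cells with under 200 genes or over 20% mt- UMIs were removed, as were the 172 cells (3.71%) most like simulated doublets. Leiden clustering (resolution 0.5) used 30 components of 2000 variable genes, without members, mt- or pathway genes, and myeloid-like cells were clustered again on 1000 genes.

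Names required 3 raised markers (2-fold for classes, 1.5-fold for states) and 2 markers in 50% of the cells, and shallow clusters also a marker among their 10 leading genes, a rule revised after the clusters had been seen. Rebuilt names may differ from the study's. CPM and ratios carry exact Poisson and conditional intervals, and a count of 0 was bounded by 3 counts. Named were the extremes of each complex and, up to 5 in each direction, of each comparison, together with all isoforms, assembly factors, Sdh subunits and mt- genes. The values of 1 gene are not reported here, and it is left out of the plot of ratios by gene but not of sums and counts. Members shared no same-strand exon, whereas mt-Atp6 overlapped mt-Atp8 and mt-Co3, and mt-Nd4 overlapped mt-Nd4l. Scripts were tested on simulated data. Alternatives covered cell limits, doublets, variable genes, resolution, seed, denominator, means over cells, depth, tumor RNA, fold and UMI minimum. Software was Python 3.11.15 and leidenalg 0.10.2 (clustering), numpy 2.4.6 and scipy 1.17.1 (statistics), and matplotlib 3.10.9 (figures).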

Additional observations from a re-analysis of the deposited data

Results flagged for a closer look

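The 667 cells left out for over 20% mt- UMIs were used in no comparison and still held the nuclear genes, at 10957 CPM (10849 to 11067), above the limit that a count of 0 allows. Per total UMIs without mt- genes they stood at 17531, against 29904 in the kept cells. Ndufb1-ps, which the rule leaves out as a pseudogene by its symbol alone, had a level of 276 CPM in all kept cells. It stood at 254.5 in Shisal2b-high and 369 in myeloid-like cells. The annotation lists it as a long noncoding RNA from a bidirectional promoter, not as a pseudogene. It was singled out after its values had been seen.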

How the results depend on the processing

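No paired analysis was possible because there was 1 library and no replicate numbers were shared between groups. The 5 summed ratios stayed on the same side of 1 under every alternative that gave a value, but changed filters and clusterings also changed the groups. The 33 CAF-like cells became 469 (29 of them shared) with 10% mt-, 582 (29) without a mt- limit, 112 (33) with doublets kept and 152 and 173 (33 each) at resolutions 0.3 and 1.0. The 116 Cxcl9 cells became 398 (95) with 500 genes, 709 (106) at resolution 0.3 and 472 (98) with another seed. Ratios under these alternatives set other cells side by side and do not bear on the stability of the reported ones. Most ratios moved by more than counting error, which is narrow at this depth, and the cause was not tested.

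For the nuclear genes, Shisal2b-high over myeloid-like cells (1.42), the ratio was 1.42 with a limit of 10% mt- UMIs, with at least 500 genes, with members among the variable genes and at resolution 1.0, 1.41 with another seed, 1.66 without mt- and ribosomal protein UMIs, 1.44 as a mean over cells, 1.40 at 5000 to 20000 UMIs and 1.47 with tumor RNA subtracted. For the mt- genes (1.09) it was, in this order where run, 1.09, 1.15, 1.10 and 1.12, then 1.11, 1.02, 2.24 and 1.10, and 1.03 without a mt- limit, 1.10 with doublets kept and 1.11 at resolution 0.3.

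For Arg1-Spp1-Mmp12 over Cxcl9 cells (0.935) it was 0.9004 with 500 genes, 0.916 with doublets kept, 0.901 at resolution 0.3, 0.879 with another seed and 0.913 in the depth window. For T and NK-like over myeloid-like cells (1.18) it was 1.15 with 10% mt- and with 500 genes, 1.16 at resolution 1.0, 1.36 without mt- and ribosomal protein UMIs, 1.22 as a mean over cells and 1.24 in the window. For Shisal2b-high over CAF-like cells (1.31) it was 1.20 with 10% mt-, 2.41 without a mt- limit, 1.28 with doublets kept, 1.62 and 1.60 at resolutions 0.3 and 1.0, 1.51 without mt- and ribosomal protein UMIs, 1.43 as a mean over cells, 1.40 with tumor RNA subtracted and 1.43 without the Rgs5 cells.

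The 37 members called higher became 16 at 2-fold and 59 without mt- and ribosomal protein UMIs, and stayed within 1.5 times of 37 in the other 14 alternatives. In the depth window, read by complex and mt- gene after the values had been seen, 5 ratios over myeloid-like cells changed direction, to 1.46 for the mt- genes of complex IV, 1.25 for mt-Co1, 1.81 for mt-Co2, 1.43 for mt-Co3 and 2.11 for mt-Nd5. Leaving out Rgs5 cells or the cluster led by Clec9a was also chosen after seeing the data. Without a mt- limit no Cxcl9 cluster was named, and in the depth window too few CAF-like cells remained, so neither gave a value. Groups under 50 cells and isoforms with few UMIs limit what depth can show.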

Other observations

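The unnamed clusters, which entered no comparison, held the nuclear genes at 25997 CPM in the 473 cells led by the hemoglobin genes Hbb-bs and Hba-a1, 22147 in the 74 cells led by Cxcl13 and Lcn2, 18444 in the 48 cells led by the immunoglobulin genes Iglc2 and Iglc3 and 18124 in the 26 cells led by the lung genes Scgb1a1 and Sftpc. Their medians were 918, 714.5, 908 and 618 UMIs per cell. The mt- genes stood at 25382, 27880, 88717 and 38082 CPM. In the 148 myeloid cells without a name, led by the neutrophil genes S100a9 and S100a8, the nuclear genes stood at 16501 and the mt- genes at 84105, that is, 5.10 mt- UMIs per nuclear UMI, the highest of all clusters. Shisal2b and Rhox5 together stood, relative to their level in Shisal2b-high cells, at 50.9%, 33.8%, 28.4% and 28.0% in the 4 unnamed clusters and 30.8% in the unnamed myeloid cells.

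Hif1a, the oxygen-regulated transcription factor, and Vegfa, a gene of its response, were read beside Cox4i2 and Ndufa4l2. Vegfa is among the genes by which the Arg1-Spp1-Mmp12 cells were named, so its level there is no finding. Vegfa stood at 240.5 CPM in Arg1-Spp1-Mmp12, 232 in Fosb and Klf2, 79.9 in Cxcl9 and 37.9 in CAF-like cells. The mRNA of Hif1a stood at 95.3, 125, 101.3 and 193 in the same groups. The CAF-like values pool all cells of that group, whereas its 6 Rgs5 cells held all 61 UMIs of Cox4i2 and 159 of those of Ndufa4l2. A part of low oxygen in these levels was not tested.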
